A study of Arabidopsis thaliana with 16 samples.

Results

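The 57 loci described here had lower transcript levels in Arabidopsis thaliana roots that lack EIN3 and EIL1 before any ethylene was given, and ethylene did not raise them 1.5-fold where both factors were present. They were chosen from the measured values, as read counts scaled to the same total in each library (CPM), averaged over the 2 libraries of a group. A locus had to reach 5 CPM in untreated Col-0 and in untreated rhd6rsl1, stand in untreated ein3eil1 at no more than 67% of untreated Col-0, and stand in the untreated quadruple mutant at no more than 67% of untreated rhd6rsl1. Of 33518 loci, 14875 reached the floor and 135 of these met both untreated limits. A further 78 were set aside because ethylene raised them at least 1.5-fold in Col-0 or rhd6rsl1, which left 57. EIN3 and EIL1 themselves are among the 57, so 55 remain beside the mutated loci.

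Polyadenylated RNA was taken from roots of seedlings held upright on MS plates to an age of 6 d, which then spent 4 h in 10 ppm ethylene or without it. Col-0 is the wild type, ein3eil1 and rhd6rsl1 each carry a pair of mutations, and ein3eil1rhd6rsl1, called the quadruple mutant, carries all 4. Each of the 4 genotypes had, for each treatment, 2 replicate libraries, 16 in all. No source used here gives the alleles or says whether replicates were separate plantings, so p-values measure the spread between these libraries. Because roots were sampled in bulk, fewer cells of a type and less RNA per cell cannot be told apart.

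Ethylene is a gaseous hormone whose receptors keep the pathway off until the gas binds. EIN3 and its close homologue EIL1 are the transcription factors at the end of the pathway. F-box proteins mark both for degradation in air, and ethylene stabilizes them. In roots ethylene slows elongation and promotes root hairs, and RHD6 and RSL1 are basic helix-loop-helix factors needed for root hair formation.

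The label given to these loci, a need for EIN3/EIL1 at baseline only, went against the data for most of them, and they are therefore called the EIN3/EIL1-dependent untreated set, by the rule that chose them. With ethylene, 38 of the 57 were lower in ein3eil1 than in Col-0 by edgeR's quasi-likelihood test with Benjamini-Hochberg adjustment over 22304 loci at an adjusted p below 0.05, where 11.2% of all loci tested were called lower. In the quadruple mutant against rhd6rsl1, 31 of 57 were lower, where 13.1% of all loci were. The same 30 loci were lower in both. Of the rest, 12 were called in neither comparison. In ein3eil1 4 members were higher, where 14.1% of all loci were, and in the quadruple mutant 5, where 17.9% of all loci were, and 2 of these were higher in both. Cell type markers moved in the same comparisons. Of 22 root hair genes, 16 were lower in each, with median log2 fold changes of -1.06 in ein3eil1 and -3.63 in the quadruple mutant, and their summed level with ethylene was 1391.4 to 1560.7 CPM in ein3eil1 and 318.2 to 331.5 in the quadruple mutant, against 3109.1 to 3402.0 in Col-0 and 601.1 to 614.8 in rhd6rsl1. The sum in the quadruple mutant came mostly from LRL1, LRL2, RHD2 and RHD4, at 95.3, 51.5, 44.4 and 117.7 CPM with ethylene. The next highest gene there, PRP3, stood at 4.22 CPM. All 12 suberin genes were higher in each, and of 10 endodermis genes 5 and 7 were higher. Of 10 epidermal patterning genes, 6 were higher in ein3eil1, and 5 were higher and 2 lower in the quadruple mutant. Of 5 root cap genes, 1 was lower and 1 higher in each. In the untreated comparisons, which chose the members, 8 of the 22 root hair genes were lower in ein3eil1, with a median of -0.65. In the untreated quadruple mutant 1 was lower, with a median of -0.10. Many of the 22 were already near 0 in untreated rhd6rsl1, with up to 7 at 0 in a library. EXPA7, RSL4 and PRP3, for example, stood at 0.026, 0.077 and 0.377 CPM there, so a further fall could hardly be seen. LRL1, LRL2, RHD2 and RHD4 stood higher there, at 85.0, 37.4, 44.9 and 131.4 CPM. Of the 12 suberin genes, 7 were higher in untreated ein3eil1 and 0 in the untreated quadruple mutant. Of the 10 endodermis genes, 1 was lower and 0 higher in untreated ein3eil1, and 0 were called in the untreated quadruple mutant. No gene of these marker lists is a member, and their part in the members' differences was not tested. The ein3eil1 and quadruple ethylene libraries took no part in the choice, and the Col-0 and rhd6rsl1 ethylene libraries entered it only through the upper limit against untreated.

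**Figure D1:**
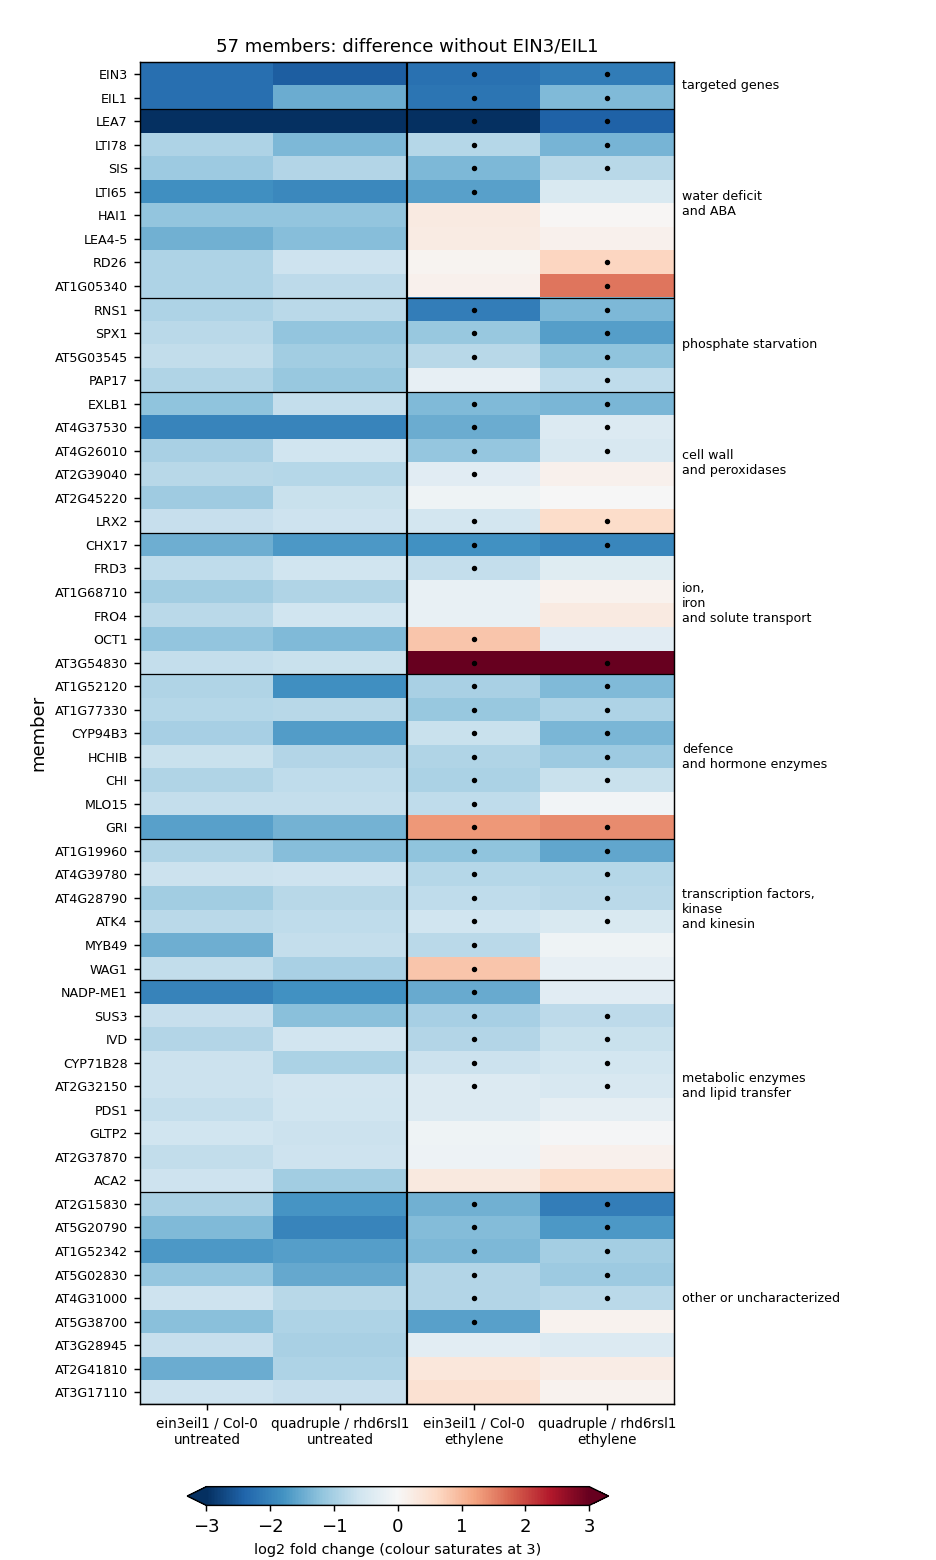
Log2 fold changes of the 57 members (rows, grouped by role) without EIN3/EIL1, in ein3eil1 against Col-0 and in the quadruple mutant against rhd6rsl1, untreated (left columns, which chose the members) and with ethylene (right columns). Blue is lower and red is higher in the mutant, and dots mark the 42 and 36 calls with ethylene. Most rows stay blue with ethylene, while AT3G54830 and GRI are red and called higher in both columns. By mean CPM, 8 members, these 2 among them, stood at or above 100% of the control in both backgrounds with ethylene.

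The 250 bases before the annotated start are shown for 4 members whose matches fall there, as RefSeq TAIR10.1 gives them, 5′ to 3′ on the strand of the gene. LTI65 and LTI78 are neighbours on chromosome 5 with no annotated gene between them. LEA7 on chromosome 1 had the lowest untreated ratios of the set, and AT1G19960 on chromosome 1 is 1 of 2 members with a GCC box. All 4 lie on the plus strand. Capitals mark matches on either strand to the EIN3 core motif ATGNANCT in LTI65 and LTI78, to the G-box CACGTG in LEA7 and to the GCC box AGCCGCC in AT1G19960.
LTI65: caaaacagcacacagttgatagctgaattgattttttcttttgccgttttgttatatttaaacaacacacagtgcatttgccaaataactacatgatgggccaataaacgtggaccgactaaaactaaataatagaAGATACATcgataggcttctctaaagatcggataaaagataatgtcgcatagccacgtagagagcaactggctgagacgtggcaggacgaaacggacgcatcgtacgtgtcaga
LTI78: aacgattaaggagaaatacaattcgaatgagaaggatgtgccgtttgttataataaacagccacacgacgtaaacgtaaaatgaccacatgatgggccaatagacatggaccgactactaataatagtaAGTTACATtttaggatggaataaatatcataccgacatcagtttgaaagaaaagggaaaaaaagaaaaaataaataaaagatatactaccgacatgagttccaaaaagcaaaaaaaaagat
LEA7: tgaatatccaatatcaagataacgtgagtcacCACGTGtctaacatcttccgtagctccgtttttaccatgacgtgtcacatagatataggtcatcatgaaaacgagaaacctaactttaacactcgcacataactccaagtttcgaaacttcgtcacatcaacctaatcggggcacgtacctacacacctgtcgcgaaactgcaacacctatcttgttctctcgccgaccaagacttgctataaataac
AT1G19960: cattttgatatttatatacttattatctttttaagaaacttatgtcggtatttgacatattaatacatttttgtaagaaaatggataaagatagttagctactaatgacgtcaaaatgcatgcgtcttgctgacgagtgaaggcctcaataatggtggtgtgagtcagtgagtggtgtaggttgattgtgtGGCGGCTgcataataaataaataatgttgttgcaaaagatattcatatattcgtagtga
Over 300 bases, from 250 before to 50 after the start, ATGNANCT was found in 10 of the 55 members with a promoter in RefSeq, or 18.2%, beside 14.8% of all 27443 promoters. Among the forms this pattern allows, the 4 narrower ones ATGTACCT, ATGTATCT, ATGCACCT and ATGCATCT together were in 1 member, LTI65, or 1.8%, beside 3.1% of all promoters. The match marked in LTI78 is none of these 4. The GCC box, which ERF factors bind, was in AT1G19960 and AT4G39780, or 3.6%, beside 0.8% of all promoters. The G-box was in AT1G05340, PDS1, LEA7 and LEA4-5, or 7.3%, beside 7.7% of all promoters. The members also had to reach the 5 CPM floor. Among the 14576 promoters of loci at that floor the shares were 13.9% for ATGNANCT and 2.8% for the 4 forms. They were 0.8% for the GCC box and 9.0% for the G-box. A match is a description of the letters, and the motifs do not overlap one another in these windows.

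Every member passed the filter on low counts, with at least 1911 reads over the 16 libraries. RSL1 stood at 5.15 to 5.92 CPM in ein3eil1 and untreated Col-0 and at 1.11 to 2.01 CPM in the other 10 libraries, among them Col-0 with ethylene. RHD6 did not separate the ethylene libraries of rhd6rsl1, at 15.5 and 15.8 CPM, from those of Col-0, at 14.4 and 16. The summed level of 22 root hair genes did separate them, at 601.1 and 614.8 CPM against 3109.1 and 3402.0. The 12 photosynthesis genes of the marker list summed to 983.8 CPM in replicate 1 of Col-0 with ethylene and to 1604.4 in replicate 1 of the quadruple mutant with ethylene, against 237.6 to 455.0 in the other 14 libraries. Their part in the results was not tested beyond leaving these libraries out, which left 32 of the 38 and 28 of the 31 calls.

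EIN3 stood at 153 and 145 CPM in untreated Col-0 and at 30.0 and 33.3 in untreated ein3eil1. It stood at 185 and 172 CPM in untreated rhd6rsl1 and at 35 and 28 in the untreated quadruple mutant. With ethylene the levels were 159 and 150.2 CPM in Col-0, 32.2 and 31.7 in ein3eil1, 173 and 183 in rhd6rsl1 and 41.8 and 38.3 in the quadruple mutant. With ethylene the mutant and control libraries did not overlap, and ethylene left the EIN3 transcript within 1.04 times its untreated level in Col-0. EIL1 stood at 71.8 and 68.6 CPM in Col-0 with ethylene, 14.8 and 15.1 in ein3eil1, 79.1 and 70.6 in rhd6rsl1 and 28.3 and 29.4 in the quadruple mutant. Both mutants kept a remainder of the transcript, and that of EIL1 was 38.5% of its control in the quadruple mutant against 21.4% in ein3eil1. The difference between the mutants, 0.87 ± 0.15 on the log2 scale, passed the test (edgeR, adjusted p = 0.00246). Such a difference between backgrounds in the effect of EIN3/EIL1 loss with ethylene was called upward for 6 members, where 1.32% of all loci were, and downward for 1, where 0.596% were.

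Across the set the untreated ratios used by the rule ran from a log2 fold change of -3.67 to -0.61 in ein3eil1, with a median of -0.92, and from -4.38 to -0.58 in the quadruple mutant, with a median of -0.92. Just inside the limits were GLTP2 and AT4G31000, at 66.9 and 66.4% of Col-0, and IVD and AT2G32150, both at 66.2% of rhd6rsl1. Just outside were AT2G40230 and UGT73D1, at 67.6 and 67.9%, and HB-7 and AT5G54300, at 67.1 and 67.4%. On the ethylene limit, AT4G26010 and AT1G52120 stayed in at 1.498 and 1.496 times untreated Col-0, while AT2G45360 and AT2G39360 fell out at 1.518 and 1.6. In rhd6rsl1, AT4G39780 and AT2G15830 stayed in at 1.458 and 1.423 times untreated, while EBF1, an F-box gene that targets EIN3, and AT3G12502 fell out at 1.624 and 1.64. With ethylene the median log2 fold change of the 57 was -0.80 in ein3eil1 against Col-0, where that of all loci tested was -0.003, and -0.48 in the quadruple mutant against rhd6rsl1, where that of all loci was 0.002. Without EIN3 and EIL1 themselves, 36 and 29 of 55 members were lower.

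The members of the water deficit and abscisic acid group split with ethylene. Of 8 such members, 4 were lower in ein3eil1 and 3 in the quadruple mutant, and 2 were higher in the quadruple mutant. LEA7 encodes a late embryogenesis abundant protein, a class of proteins that accumulates in drying tissue. It stood at 17.4 and 7.63 CPM in untreated Col-0, 1.43 and 0.644 in ein3eil1, 12 and 17 in rhd6rsl1 and 0.468 and 0.895 in the quadruple mutant. With ethylene it stood at 15.8 and 4.12 CPM in Col-0, 0.937 and 0.451 in ein3eil1, 5.69 and 5.11 in rhd6rsl1 and 0.902 and 1.02 in the quadruple mutant. With ethylene every library without EIN3/EIL1 lay below every library with them, although the Col-0 replicates differed from each other at both treatments. With ethylene LEA7 was lower by a log2 fold change of -3.78 ± 0.60 in ein3eil1 (SE, n = 2 and 2 libraries; edgeR, adjusted p = 0.000108) and of -2.43 ± 0.59 in the quadruple mutant (edgeR, adjusted p = 0.00422).

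LTI65 and LTI78, also known as RD29B and RD29A, are classic targets of drought and cold signalling. LTI78 stood with ethylene at 222 and 124 CPM in Col-0, 97.1 and 88.4 in ein3eil1, 209 and 269 in rhd6rsl1 and 89.4 and 85.4 in the quadruple mutant. It was lower in both mutants, at -0.86 ± 0.20 and -1.4 ± 0.20 on the log2 scale (edgeR, adjusted p = 0.00293 and 2.65e-05). LTI65 was lower in ein3eil1, at -1.64 ± 0.37 (edgeR, adjusted p = 0.00263), and its value in the quadruple mutant was -0.45 ± 0.37 (edgeR, adjusted p = 0.391). Without replicate 1 of Col-0 with ethylene, the library high in photosynthesis transcripts, neither gene kept its call in ein3eil1, with adjusted p = 0.105 for LTI65 and 0.101 for LTI78. SIS, annotated as an RLIM-like ubiquitin ligase, was lower in both mutants, at -1.34 ± 0.15 and -0.83 ± 0.15.

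The other 4 members of this group were not called lower with ethylene, and 2 were higher in the quadruple mutant. LEA4-5, a second late embryogenesis abundant gene, stood at 11.2 and 7.71 CPM in untreated Col-0 and 3.91 and 3.2 in ein3eil1, and with ethylene at 3.31 and 1.06 and 3.46 and 1.52. The groups that were apart untreated overlapped with ethylene. HAI1, a clade A protein phosphatase that restrains abscisic acid signalling, had values of 0.27 ± 0.38 and 0.04 ± 0.38 with ethylene, neither of which passed the test. RD26, a NAC transcription factor of the abscisic acid response, was higher in the quadruple mutant than in rhd6rsl1, at 0.64 ± 0.18 (edgeR, adjusted p = 0.00929). That call was lost without replicate 1 of rhd6rsl1 with ethylene or replicate 2 of the quadruple mutant with ethylene, with adjusted p up to 0.224. AT1G05340, a small cysteine-rich transmembrane protein, stood with ethylene at 14.1 and 9.91 CPM in Col-0, 13.2 and 12.6 in ein3eil1, 3.51 and 2.63 in rhd6rsl1 and 8.15 and 9.79 in the quadruple mutant. It was higher in the quadruple mutant, at 1.6 ± 0.22 (edgeR, adjusted p = 2.07e-05), while in ein3eil1 its value was 0.14 ± 0.19. Among 8 further clade A phosphatases, a list added after values were seen, 3 were lower in untreated ein3eil1 (ABI1, ABI2 and HAB1) and 2 in the untreated quadruple mutant (ABI1 and ABI2). With ethylene the same list had 3 lower and 3 higher in each mutant. Of 15 further water deficit and abscisic acid markers tested, also added after values were seen, 4 were lower in untreated ein3eil1 and 3 in the untreated quadruple mutant, and with ethylene 3 were lower and 5 higher in each.

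**Figure D2:**
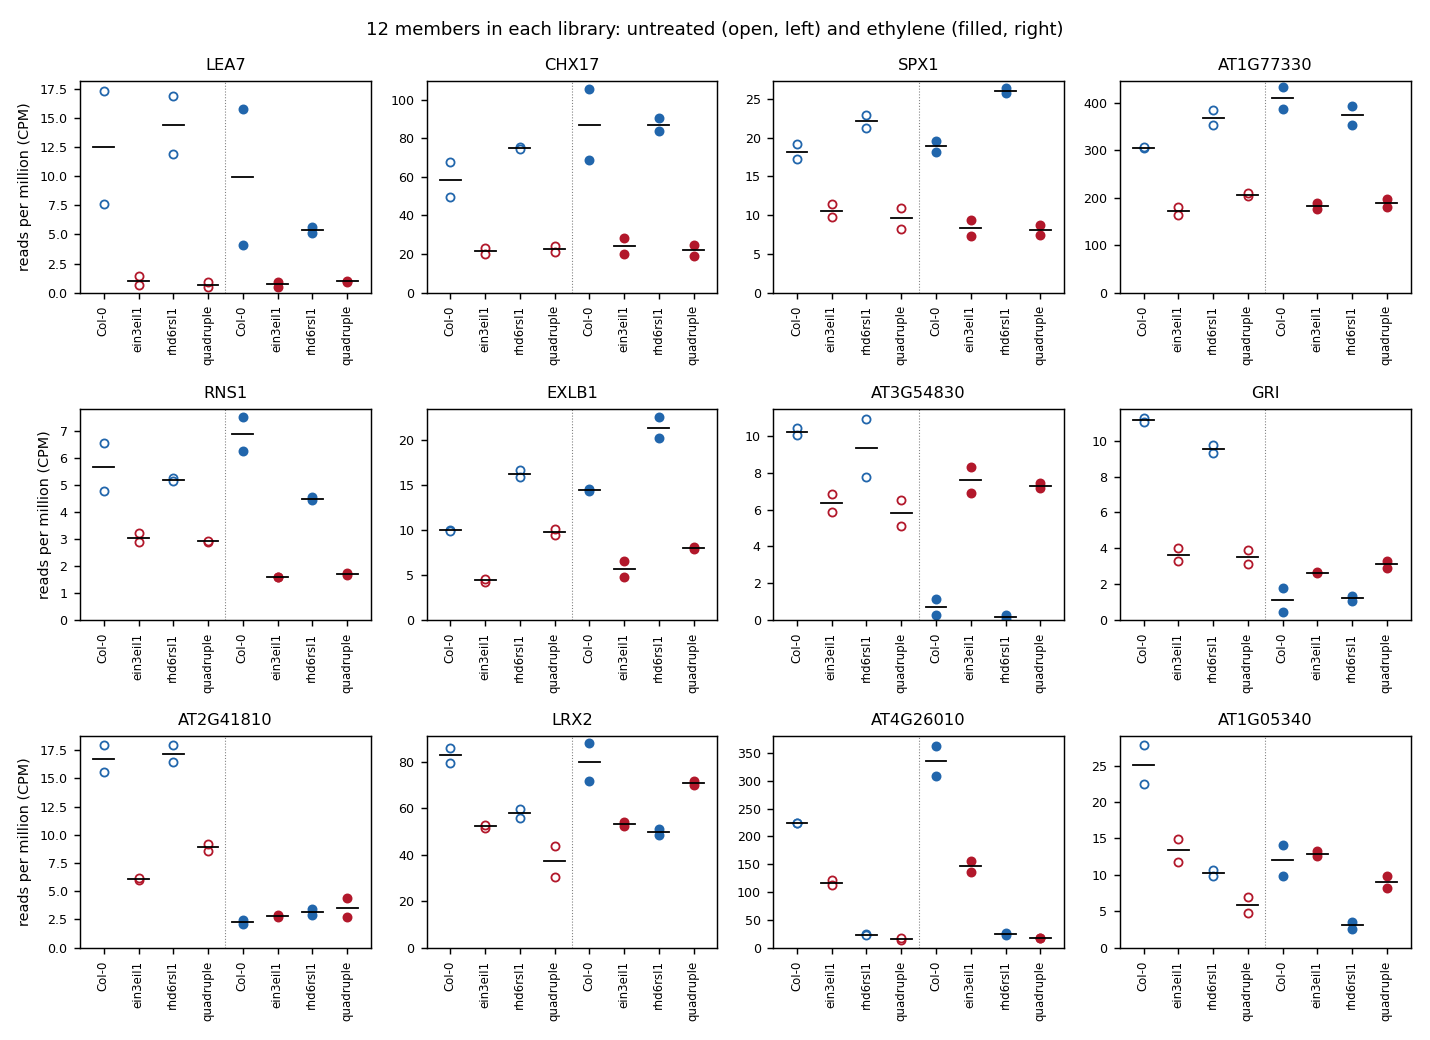
Level in CPM (vertical axis, from 0) of 12 members in each of the 16 libraries, untreated (open circles, left) and with ethylene (filled circles, right), blue with and red without EIN3/EIL1. Black bars are group means of 2 libraries. LEA7 to EXLB1 keep the order with ethylene, whereas in AT3G54830 and GRI the red circles lie above the blue ones.

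Of 4 members tied to phosphate starvation, 3 were lower in ein3eil1 and all 4 in the quadruple mutant with ethylene. SPX1, a sensor of inositol pyrophosphates that holds back the phosphate starvation regulator PHR1, stood with ethylene at 19.6 and 18.2 CPM in Col-0, 9.37 and 7.28 in ein3eil1, 26.4 and 25.8 in rhd6rsl1 and 7.42 and 8.74 in the quadruple mutant. The groups did not overlap, and the gene was lower by -1.15 ± 0.15 and -1.64 ± 0.15 on the log2 scale (edgeR, adjusted p = 1.7e-05 and 1.83e-07). RNS1, a secreted ribonuclease that frees phosphate from RNA, stood with ethylene at 7.54 and 6.27 CPM in Col-0, 1.61 and 1.61 in ein3eil1, 4.44 and 4.57 in rhd6rsl1 and 1.75 and 1.67 in the quadruple mutant. It was lower in both mutants, at -2.06 ± 0.19 and -1.35 ± 0.20. AT5G03545, a transcript induced by phosphate starvation, was lower at -0.83 ± 0.12 and -1.2 ± 0.13. PAP17, a purple acid phosphatase, was lower in the quadruple mutant, at -0.76 ± 0.17 (edgeR, adjusted p = 0.00241), and its value in ein3eil1 was -0.25 ± 0.17. The 12 other phosphate starvation genes of the list did not share this direction with ethylene, with 3 lower and 5 higher in ein3eil1 and 2 lower and 5 higher in the quadruple mutant.

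Wall proteins and class III peroxidases made up 6 members, of which 5 were lower in ein3eil1 and 3 in the quadruple mutant with ethylene. EXLB1, an expansin-like protein, stood with ethylene at 14.6 and 14.4 CPM in Col-0, 6.56 and 4.77 in ein3eil1, 20.2 and 22.6 in rhd6rsl1 and 7.91 and 8.12 in the quadruple mutant, and was lower at -1.32 ± 0.14 and -1.37 ± 0.14. With ethylene its libraries with and without EIN3/EIL1 did not overlap. The peroxidase AT4G26010 stood with ethylene at 362 and 308 CPM in Col-0, 156 and 136 in ein3eil1, 22.9 and 26.1 in rhd6rsl1 and 17.3 and 16.9 in the quadruple mutant. It was lower without EIN3/EIL1 in both backgrounds, at -1.17 ± 0.11 and -0.47 ± 0.12, and the step between backgrounds was larger than either. The peroxidase AT4G37530 stood with ethylene at 56.3 and 43.6 CPM in Col-0, 18.2 and 16.7 in ein3eil1, 20.8 and 24.9 in rhd6rsl1 and 15.3 and 18.2 in the quadruple mutant. It was lower by -1.48 ± 0.13 in ein3eil1 and -0.40 ± 0.13 in the quadruple mutant (edgeR, adjusted p = 1.24e-07 and 0.0275). The second call was lost without replicate 2 of rhd6rsl1 with ethylene or replicate 1 of the quadruple mutant with ethylene, with adjusted p up to 0.191.

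LRX2, a leucine-rich repeat extensin of the cell wall, was the 1 member called in opposite directions. It stood with ethylene at 88 and 71.8 CPM in Col-0, 53.9 and 52.4 in ein3eil1, 51.2 and 48.6 in rhd6rsl1 and 69.8 and 71.8 in the quadruple mutant. It was lower in ein3eil1 than in Col-0, at -0.56 ± 0.12, and higher in the quadruple mutant than in rhd6rsl1, at 0.55 ± 0.13 (edgeR, adjusted p = 0.00275 and 0.00246). AT2G45220, a pectin methylesterase and one of the 5 members with the most reads in untreated Col-0, had values of -0.13 ± 0.14 and -0.00 ± 0.14, which did not pass the test. The peroxidase AT2G39040 was lower in ein3eil1 by -0.33 ± 0.11, a call lost under 8 alternatives, with adjusted p up to 0.423 without replicate 2 of ein3eil1 with ethylene.

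Among 6 transport members, 2 were lower and 2 higher in ein3eil1, and 1 was lower and 1 higher in the quadruple mutant. CHX17 was the transport member lower in both. This cation/proton exchanger stood with ethylene at 105 and 68.9 CPM in Col-0, 28.3 and 19.8 in ein3eil1, 83.5 and 90.7 in rhd6rsl1 and 19.1 and 24.6 in the quadruple mutant. It was lower by -1.82 ± 0.20 and -1.95 ± 0.20 on the log2 scale (edgeR, adjusted p = 1.96e-06 and 7.01e-07). FRD3, a citrate exporter that loads iron into the xylem, was lower in ein3eil1, at -0.73 ± 0.14, and FRO4, a ferric reductase, had values of -0.23 ± 0.11 and 0.28 ± 0.12 that did not pass the test. OCT1, a carnitine transporter, was higher in ein3eil1 by 0.83 ± 0.29 (edgeR, adjusted p = 0.0449), a call lost under 13 of the alternatives, with adjusted p up to 0.47.

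AT3G54830, of the amino acid transporter family, showed the widest change of order. Untreated it stood at 10.4 and 10.0 CPM in Col-0, 5.88 and 6.87 in ein3eil1, 7.75 and 10.9 in rhd6rsl1 and 6.53 and 5.12 in the quadruple mutant. With ethylene it stood at 1.14 and 0.253 CPM in Col-0, 8.33 and 6.88 in ein3eil1, 0.29 and 0.057 in rhd6rsl1 and 7.42 and 7.19 in the quadruple mutant. The levels with EIN3/EIL1 came from 41 and 10 reads in Col-0 and from 10 and 2 in rhd6rsl1, so the size of the fold is loosely held. With ethylene it was higher without EIN3/EIL1, at 3.51 ± 0.37 in ein3eil1 and 5.42 ± 0.47 in the quadruple mutant (edgeR, adjusted p = 1.24e-06 and 8.66e-08).

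Of 7 defence and hormone members, 6 were lower in ein3eil1 and 5 in the quadruple mutant with ethylene, and GRI was higher in both. They included AT1G77330, annotated here only as a 2-oxoglutarate and Fe(II)-dependent oxygenase. It is also known as ACC oxidase 5, an enzyme of the last step of ethylene synthesis. It stood with ethylene at 433 and 388 CPM in Col-0, 189 and 177 in ein3eil1, 354 and 394 in rhd6rsl1 and 181 and 197 in the quadruple mutant, and was lower at -1.13 ± 0.10 and -0.93 ± 0.10. The groups with ethylene did not overlap. HCHIB, a basic chitinase induced by ethylene and jasmonate in defence, stood with ethylene at 99.2 and 97.9 CPM in Col-0, 57.5 and 45.7 in ein3eil1, 203 and 252 in rhd6rsl1 and 89.6 and 116 in the quadruple mutant. It was lower at -0.90 ± 0.18 and -1.09 ± 0.18. A second chitinase, CHI, was lower at -0.94 ± 0.17 and -0.68 ± 0.17, and CYP94B3, which hydroxylates the active jasmonate conjugate, was lower at -0.68 ± 0.19 and -1.38 ± 0.20. The call of CYP94B3 in ein3eil1 was lost without replicate 1 of Col-0 or replicate 2 of ein3eil1, both with ethylene, with adjusted p up to 0.2. GRI is a Stig1 family protein linked to cell death. It stood untreated at 11.2 and 11 CPM in Col-0 and 3.31 and 4 in ein3eil1, and with ethylene at 1.78 and 0.455 in Col-0, 2.6 and 2.68 in ein3eil1, 1.33 and 1.08 in rhd6rsl1 and 3.32 and 2.89 in the quadruple mutant. With ethylene it was higher at 1.29 ± 0.34 and 1.41 ± 0.34 (edgeR, adjusted p = 0.00909 and 0.00393), and without replicate 2 of Col-0 with ethylene the first call was lost, at an adjusted p of 0.0974 by edgeR. Without replicate 2 of rhd6rsl1 with ethylene the second was lost, at 0.0514.

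Of 6 regulators, 5 were lower in ein3eil1 and 4 in the quadruple mutant. AT1G19960, annotated as a transcription factor, was lower at -1.21 ± 0.18 and -1.57 ± 0.18, the bHLH factor AT4G28790 at -0.76 ± 0.15 and -0.81 ± 0.14, and the AP2-type factor AT4G39780 at -0.86 ± 0.12 and -0.86 ± 0.12. ATK4, a kinesin, was lower at -0.59 ± 0.10 and -0.47 ± 0.10. WAG1, a kinase that phosphorylates PIN auxin carriers, stood with ethylene at 4.26 and 3.89 CPM in Col-0, 6.82 and 7.28 in ein3eil1, 10.2 and 12.4 in rhd6rsl1 and 7.91 and 10.4 in the quadruple mutant. Its Col-0 libraries were the lowest of the 8, and it was higher in ein3eil1 than in Col-0, at 0.82 ± 0.16 (edgeR, adjusted p = 0.000763), with -0.26 ± 0.15 in the quadruple mutant.

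The 9 metabolic members had 5 lower calls in ein3eil1 and 4 in the quadruple mutant. IVD, which acts in leucine breakdown, was lower at -0.88 ± 0.11 and -0.66 ± 0.11, and SUS3, a sucrose synthase, at -0.99 ± 0.18 and -0.80 ± 0.17. NADP-ME1, a malic enzyme with untreated levels of 8.79 and 5.75 CPM in Col-0 and 1.82 and 1.87 in ein3eil1, was lower with ethylene in ein3eil1, at -1.5 ± 0.32. Its value in the quadruple mutant was -0.34 ± 0.29. Of 9 other or uncharacterized members, 6 and 5 were lower. AT2G15830 and AT5G20790, both uncharacterized, were lower at -1.43 ± 0.15 and -2.07 ± 0.17 and at -1.3 ± 0.20 and -1.72 ± 0.21. AT5G38700, annotated as a cotton fibre protein, was lower in ein3eil1 by -1.63 ± 0.19, and its value in the quadruple mutant was 0.10 ± 0.22.

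**Figure D3:**
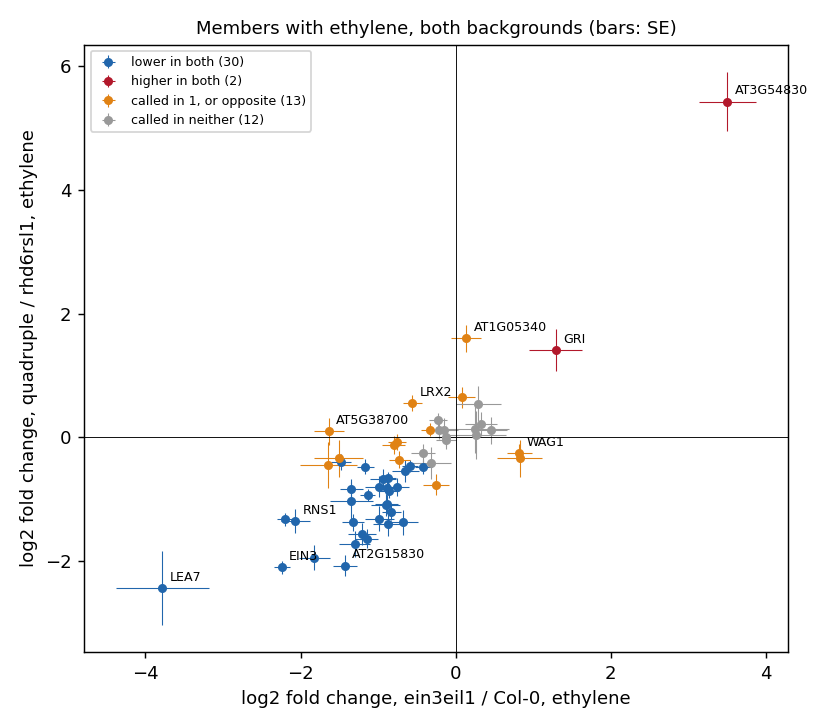
Log2 fold change with ethylene of each of the 57 members in ein3eil1 against Col-0 (horizontal) and in the quadruple mutant against rhd6rsl1 (vertical), with standard errors. Blue points (30) are lower in both, red (2) higher in both, orange (13) called once or in opposite directions and grey (12) called in neither.

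The response of the members to ethylene in Col-0 and rhd6rsl1 belongs to the rule and is described without a test. Within each genotype the untreated and ethylene libraries carry different code letters of unstated meaning, so letter and treatment cannot be told apart in these ratios. Of the 57, 37 lay between 67% and 150% of untreated in both genotypes. In 10 members ethylene left no more than 67% of the untreated level in both, and these were AT1G05340, GRI, AT1G68710, OCT1, AT2G41810, AT3G17110, AT3G54830, RD26, LEA4-5 and HAI1. Their ratios of ethylene to untreated ran from 0.068 to 0.67 in Col-0 and from 0.019 to 0.612 in rhd6rsl1. In the mutants, which share their untreated libraries with the rule, the ratios ran from 0.462 to 1.193 in ein3eil1 and from 0.4 to 1.523 in the quadruple mutant. None of these 10 was called lower without EIN3/EIL1 with ethylene in either background, while 3 were higher in ein3eil1 and 4 in the quadruple mutant. Of the 37, 31 were lower in ein3eil1 and 29 in the quadruple mutant. These classes rest on the same Col-0 and rhd6rsl1 ethylene libraries as the calls, so the split is a description. AT2G41810, of unknown function, had the lowest ratios of the 10 in both mutants. It stood at 15.5 and 17.9 CPM in untreated Col-0 and 5.97 and 6.2 in ein3eil1, and with ethylene at 2.14 and 2.43 and 2.92 and 2.71. With ethylene both genotypes stood lower than untreated, and Col-0 lay just below the mutant.

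Loss of RHD6/RSL1 divided the set. Averaged over treatments, 15 members were lower in rhd6rsl1 than in Col-0, where 11.5% of all loci were, and 13 were higher, where 10.8% were. The rule set a floor and limits within these 4 groups but no ratio between rhd6rsl1 and Col-0. At each treatment rhd6rsl1 and Col-0 carry different code letters, in opposite order, so a constant letter difference cancels in the average, and one that varies with treatment cannot be told apart from genotype. The largest falls were in AT4G26010, -3.53 ± 0.09 on the log2 scale, in MLO15, a membrane protein of the MLO family, -2.39 ± 0.09, and in AT1G05340, -1.65 ± 0.14 (edgeR, adjusted p = 6.15e-15, 9.96e-13 and 1.35e-07). MLO15 stood at 48.8 and 54.2 CPM in untreated Col-0 and 13.1 and 11.9 in untreated rhd6rsl1, and with ethylene at 81.5 and 64.8 and 11.5 and 10.9. The groups did not overlap at either treatment. The largest rises were in HCHIB, 1.1 ± 0.13, AT4G28790, 0.92 ± 0.10, and WAG1, 0.81 ± 0.11 (edgeR, adjusted p = 5.7e-06, 2.35e-06 and 1.96e-05). The averaged rise of WAG1 came mostly from ethylene, at 4.26 and 3.89 CPM in Col-0 against 10.2 and 12.4 in rhd6rsl1. Untreated, WAG1 stood at 11.7 and 10.7 CPM in Col-0 and 12.1 and 13.2 in rhd6rsl1. For WAG1, therefore, letter and genotype cannot be told apart. Of the 22 root hair marker genes, none of which is a member, 20 were lower in the same comparison, with a median of -6.16, and their part in the members' falls was not tested. The count of higher members depended on 1 library and was 22 without replicate 1 of Col-0 with ethylene.

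**Figure D4:**
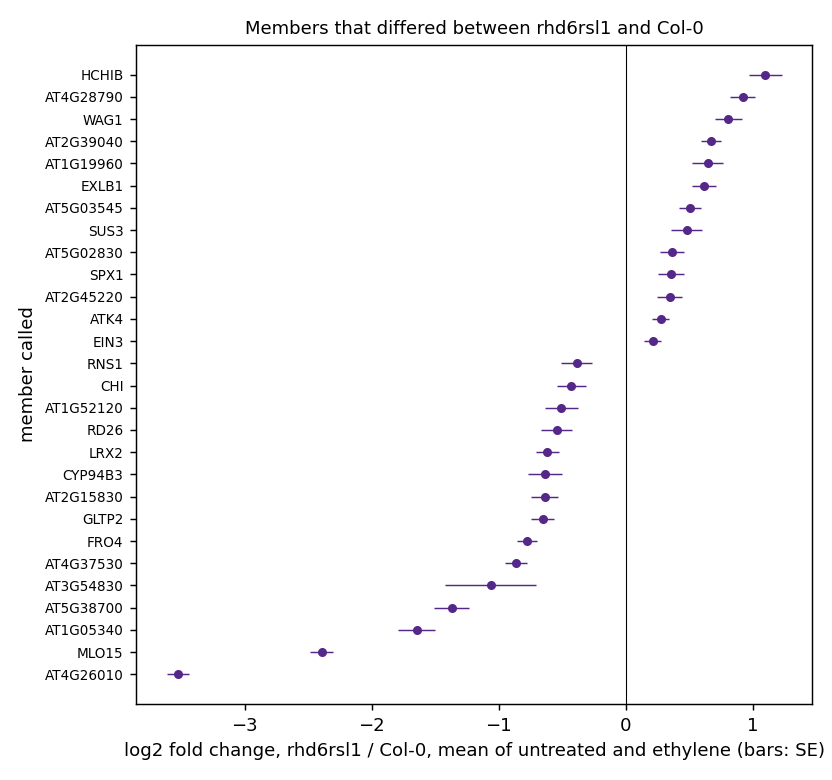
The 28 members called in rhd6rsl1 against Col-0 (vertical axis), with their log2 fold change averaged over untreated and ethylene (horizontal axis) and its standard error. AT4G26010, MLO15 and AT1G05340 lie farthest to the left and HCHIB farthest to the right.

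The quadruple mutant with ethylene had 7 members lower than ein3eil1, where 14.4% of all loci were, and 14 higher, where 14.6% were. AT4G26010 and MLO15 were again lower, at -3.1 ± 0.12 and -2.04 ± 0.13. The peroxidase AT2G39040 and NADP-ME1 were higher, at 1.18 ± 0.11 and 1.2 ± 0.32, though NADP-ME1 lost its call without either replicate of ein3eil1 or replicate 2 of the quadruple mutant. This comparison crosses the letters, so letter and genotype cannot be told apart in it. The contrasts for loss of EIN3/EIL1 each lie within 1 letter. The count of higher members was 7 without replicate 2 of ein3eil1 with ethylene and 9 without replicate 2 of the quadruple mutant with ethylene.

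Genes of the ethylene pathway outside the set give the setting. Of 15 signalling and feedback genes, 8 were lower in untreated ein3eil1, where 3.09% of all loci were, and 11 with ethylene. In the quadruple mutant 10 were lower untreated, where 2.37% of all loci were, and 13 with ethylene. Of 11 ethylene-responsive transcription factors tested, 2 and 5 were lower untreated and 11 and 10 with ethylene. Their medians with ethylene were -3.69 and -3.59, beside -0.80 and -0.48 for the 57 members. These medians are not like for like, because the rule set aside loci that ethylene raised 1.5-fold. Of the 11 factors, 10 were higher with ethylene in Col-0, with a median log2 fold change of 2.42.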

How the data were processed

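Root RNA of 16 libraries in 8 groups was sequenced. Per the submitters' processing notes, BWA 0.7.7 was the aligner and TAIR10 the build. Per the file headers, each transcript model has a raw read count and an RPKM value, both made by the authors. Library totals ran from 32968880 to 45003110 counted reads. The deposited RPKM values were not used. No source used here gives the counting tool, the strand setting or the treatment of shared reads. Counts of models were summed to loci. The rule was applied to CPM by library total. For the tests, loci were filtered with filterByExpr, scaled by TMM (factors 0.977 to 1.05) and tested in edgeR 4.0.16 (R 4.3.3) with its quasi-likelihood F test for means of 8 groups, and Benjamini-Hochberg adjustment over 22304 loci. Standard errors (SE) were taken as the absolute log2 fold change divided by the root of F. DESeq2 1.42.0 was an alternative. The code was tested on simulated data.

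The members and gene lists were chosen with earlier results of these data known, and the roles were grouped after values were seen. Members named were EIN3 and EIL1, those in a gene list, the 10 lowest untreated ratios, the 10 largest falls and 5 largest rises among those called with ethylene, the 5 with the most reads in untreated Col-0, the 5 largest falls with ethylene, the 3 largest rises and falls in rhd6rsl1, and the 2 loci on either side of each limit, and other members were named after their values were seen. Reads per locus also depend on transcript length, so levels are not compared between genes. Promoters were cut from RefSeq TAIR10.1 by locus, and no coordinate of the files was used. Same-numbered replicates deviated together only weakly: correlations over 28 pairs of groups ran from -0.0799 to 0.21, with 2 pairs over 0.1. The 2 libraries high in photosynthesis transcripts, of Col-0 and the quadruple mutant with ethylene, share a replicate number. The numbers were not taken to pair libraries.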

Additional observations from a re-analysis of the deposited data

Results flagged for a closer look

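For 7 members the EIN3/EIL1 effect with ethylene differed between backgrounds by the test of the difference itself (edgeR quasi-likelihood, adjusted p below 0.05), where 1.32% of all loci differed upward and 0.596% downward. The difference is the log2 fold change of the quadruple mutant against rhd6rsl1 minus that of ein3eil1 against Col-0. It was 1.73 for AT5G38700, 1.46 for AT1G05340, 1.11 for LRX2, 1.08 for the peroxidase AT4G37530, 0.87 for EIL1, 0.69 for the peroxidase AT4G26010 and -1.08 for WAG1. LRX2 was called in opposite directions in the 2 backgrounds. AT5G38700 stood with ethylene at 10.5 and 9.48 CPM in Col-0 and at 2.58 and 1.94 CPM in rhd6rsl1, while ein3eil1 and the quadruple mutant lay between 2.31 and 3.77 CPM. The call of AT4G26010 was lost under 13 alternatives, and those of AT1G05340 and WAG1 under 4 each.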

How the results depend on the processing

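For the lower calls with ethylene, leaving out each library in turn gave 32 to 41 in ein3eil1 and 28 to 34 in the quadruple mutant, and DESeq2 gave 39 and 32. With the replicate block, though the numbers were not taken to pair the libraries, they were 38 and 31. Across left-out libraries the other counts ranged over 2 to 4 (higher, ein3eil1), 4 to 6 (higher, quadruple mutant), 12 to 16 lower and 11 to 22 higher (rhd6rsl1 against Col-0), 6 to 9 lower and 7 to 15 higher (quadruple mutant against ein3eil1), and 0 to 3 lower and 4 to 11 higher (difference between backgrounds); the set itself numbered 47 to 67. Without a filter on low counts, 22 members were higher in rhd6rsl1, and the difference was called lower for 4 and higher for 14. A fit of only the groups compared gave 2 higher in ein3eil1 and a difference called lower for 0 (edgeR; 1 with all libraries). Leaving out both libraries high in photosynthesis transcripts, chosen after seeing the data, gave 25 higher in rhd6rsl1 and a difference called lower for 2. A floor of 10 CPM left 37 members and a 50% limit 14. GRI in rhd6rsl1 against Col-0 ran from -0.384 to 0.597 over left-out libraries, reversed without replicate 1 of Col-0 with ethylene, and was 0.597 without both those libraries. HAI1 in the quadruple mutant against rhd6rsl1 ran from -1.215 to 0.636, reversed without replicate 2 of the quadruple mutant with ethylene. The cause was not tested. Having 2 libraries a group limits every comparison.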

Other observations

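The members are spread over all 5 chromosomes, with 14, 12, 9, 9 and 13 on chromosomes 1 to 5. These are 24.6, 21.1, 15.8, 15.8 and 22.8% of members, beside 25.7, 15.1, 20.2, 15.1 and 23.7% of the loci at the floor. On chromosome 1, AT1G52120, AT1G52342, LEA7, GRI and WAG1 follow one another with 31, 47, 57 and 90 annotated genes between them, and with ethylene 3 of the 5 were lower in both mutants while GRI was higher in both. No expected spacing was computed for this run. The member nearest to EIL1 was ACA2, with 146 genes between. Several words were searched in the annotated product names, without a test. Peroxidases were 3 of the 57 members, or 5.3%, beside 0.4% of the loci at the floor. Lipid transfer, which also matched the glycolipid transfer protein GLTP2, and expansin or extensin were each at 3.5%, beside 0.2%. The words kinase, transferase and ribosomal were in 0 product names of members, beside 5.8, 5.7 and 2.4% of the loci at the floor. The search missed the kinase WAG1, whose product name lacks the word, so these counts are of words and not of gene functions.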
